A study of Mus musculus with 8 samples.

Results

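Of the 34797 gene names on the arrays, 10 were taken as the TGF-beta superfamily set: the ligands Gdf15, Tgfb1, Tgfb2, Tgfb3, Inhba, Inhbb, Bmp4 and Bmp7, and the signal transducers Smad3 and Smad7. They were chosen by name, with every non-control spot that carried the name, which gave 13 probes on 31 spots out of 55681 probes on 59305 spots. Ligands of this family are secreted proteins that bind pairs of serine/threonine kinase receptors, and the receptors phosphorylate Smad proteins that enter the nucleus. The TGF-beta ligands are stored in latent form in the matrix and, once released, restrain growth of epithelial cells, thyrocytes among them, and drive matrix production. GDF15 is a distant member, secreted by stressed or irradiated cells under the control of p53 and of the integrated stress response, which acts through GFRAL, a receptor of the hindbrain, and not through the Smad receptors.

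RNA was measured in whole thyroids of female Balb/c mice aged 8 weeks. The Tc group held 4 thyroids in which intraperitoneal pertechnetate (99mTcO4-) had left an absorbed dose of 30 Gy, taken 24 h after administration (S539, S588, S589 and S590). The Ct group held 4 control thyroids (Ct1 to Ct4), described as untreated in one place and as given saline in another. Each thyroid was hybridised to 1 one-colour Agilent array, and the question was which transcripts accompany thyroid stunning, a reduced uptake of tracer after radiation. Exposed samples lay in the first 4 positions of the slide and controls in the other 4, so that position on the slide and exposure cannot be told apart.

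Values below are log2 signal, background-subtracted and quantile-normalized between arrays. A change is the mean of the exposed minus the mean of the control arrays with its standard error (SE), and a gene was called at a limma adjusted p under 0.05 over all 55681 probes. The thyroid transcripts Tg and Pax8 were well above background on all 8 arrays, and between 60.5% and 77.3% of the spots of an array were. Markers of other cells were unequal within the groups. The T cell and thymocyte score (mean of 6 markers, each set against its own mean of the 8 arrays) was 3.39 on Ct1 and 2.35 on Ct2 and lay between -1.28 and 0.14 on the other 6 arrays, where Rag1, a gene of immature lymphocytes, was well above background only on S539. The skeletal muscle score, also of 6 markers, ran from -0.36 to 1.04 on the control and from -1.36 to 0.61 on the exposed arrays. The score of 9 thyrocyte markers, Tg and Pax8 among them, differed between the groups. It ran from -0.15 to 0.84 on the control and from -0.38 to -0.29 on the exposed arrays. Of these 9 markers, 7 were lower and 2 higher on average, and 1 was called lower (0.295% of all RefSeq genes were). The called marker, Slc5a5, had a change of -3.53 and so weighed most in the difference of the score. Changes of the rest lay between -0.85 for Foxe1 and 0.29 for Duox2, with 0.04 for Tg, and none of them was called. In RNA of whole tissue, fewer cells of a type and less RNA per cell cannot be told apart.

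Of the 10 members, Gdf15 alone was called. It rose 18.8-fold in the exposed thyroids, while the other 9 had changes between -0.70 and 0.67 and passed no adjusted test. The count of 1 member called higher stands against 0.904% of the 21021 RefSeq genes called higher, and that of 0 members called lower against 0.295% called lower. Of all probes, 0.781% were called in either direction. At an unadjusted limma p under 0.05 there were 2 members higher and 2 lower, where 6.47% and 8.13% of all RefSeq genes were. With the methods' t-test after Benjamini-Hochberg adjustment no member was called in either direction. Arrays of the groups did not overlap for Gdf15 and Inhbb, both higher, and for no member that was lower, against 5.44% and 6.21% of all RefSeq genes. The plot of each member by array shows the gap of Gdf15 beside the overlap of most others.

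**Figure D1:**
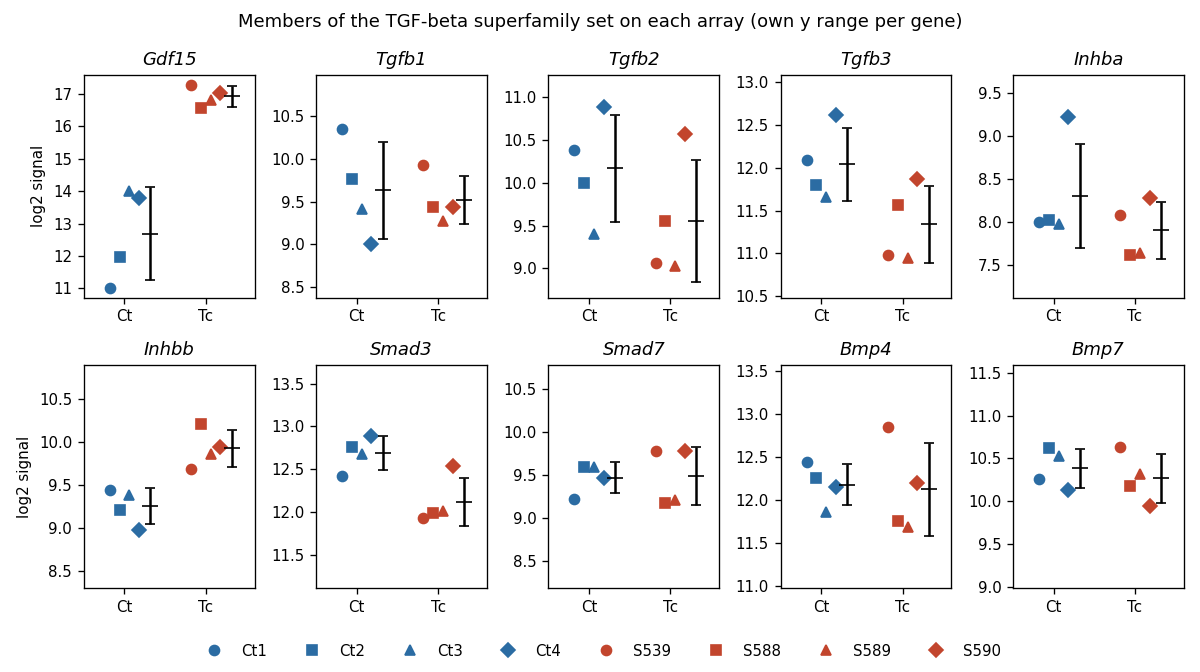
Log2 signal of the 10 members on each array, by the RefSeq probe of highest mean signal. Points are single arrays (blue Ct, red Tc, one symbol per array), bars are group mean ± SD with n = 4, and every panel has its own y range. Gdf15 ran from 11.02 to 14.00 in the control and from 16.56 to 17.30 in the exposed thyroids, and Inhbb was the only other member whose groups stayed apart.

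The Gdf15 probe lies on the minus strand at chr8:73153293-73153352 of mm9, and the array files give no exon or UTR for it. In the control thyroids Gdf15 measured 11.02, 11.98, 14.00 and 13.79 (Ct1 to Ct4). In the exposed thyroids Gdf15 measured 17.30, 16.56, 16.82 and 17.03 (S539, S588, S589 and S590). All 4 exposed thyroids exceeded all 4 controls, and the lowest exposed value exceeded the highest control value by 2.55.

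On the linear scale, before normalization, the background-subtracted Gdf15 signal was 1567, 5471, 20093 and 18373 in the controls and 131447, 85127, 110769 and 137322 in the exposed thyroids. No spot was saturated. Ct1 and Ct2 were the low controls.

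The mean of Gdf15 was 12.70 ± 1.44 (SD, n = 4) in the controls and 16.93 ± 0.31 (SD, n = 4) in the exposed thyroids. The change was 4.23 (SE 0.65, 95% interval 2.71 to 5.74, limma adjusted p = 0.0363), which is 18.8-fold with an interval from 6.56-fold to 53.6-fold. The exact two-sided permutation test gave p = 0.0286, the smallest value that 4 against 4 arrays allow. Among the 175 genes called higher whose mean log2 signal was 7 or more, Gdf15 was number 6 by size of change and number 141 by p. Its SD in the controls was larger than that of 99.3% of 13767 genes of that signal (median 0.26), and its SD in the exposed thyroids was larger than that of 72.5% (median 0.21).

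The spread of Gdf15 in the controls followed the division of the control arrays by T cell and thymocyte markers. Ct1 and Ct2, with the high marker scores, had the low Gdf15 values, and Ct3 and Ct4, with scores of -1.14 and -1.28, had the high ones. The exposed thyroids did not share this order: S539 had both their highest score, 0.14, and their highest Gdf15 value, 17.30. All 6 markers of that list were lower on average in the exposed thyroids, and none was called. With Ct1 and Ct2 left out, a choice made after the values were seen, Gdf15 changed by 3.02 (SE 0.25, limma adjusted p = 0.0316), which is 8.11-fold. Since these were also the lowest Gdf15 controls, leaving them out had to lower the change. The smaller SE reflects that Ct3 and Ct4, the controls left, lay close together. Without Ct2 alone the SE was 0.72. The part of T cell RNA in the Gdf15 values was not tested.

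Leaving out 1 array at a time, the change of Gdf15 ran from 3.64 without Ct1 (12.4-fold) to 4.71 without Ct3 (26.1-fold). Its adjusted p stayed under the threshold in these 2 cases. It was 0.121 without Ct2, 0.0595 without Ct4, 0.114 without S539, 0.0900 without S588, 0.114 without S589 and 0.109 without S590. The methods' t-test, after Benjamini-Hochberg adjustment, gave an adjusted p of 0.0993. The direction was the same in all 19 alternative analyses and the call was kept in 12 of them, as the plot of the Gdf15 change by way of processing shows.

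**Figure D2:**
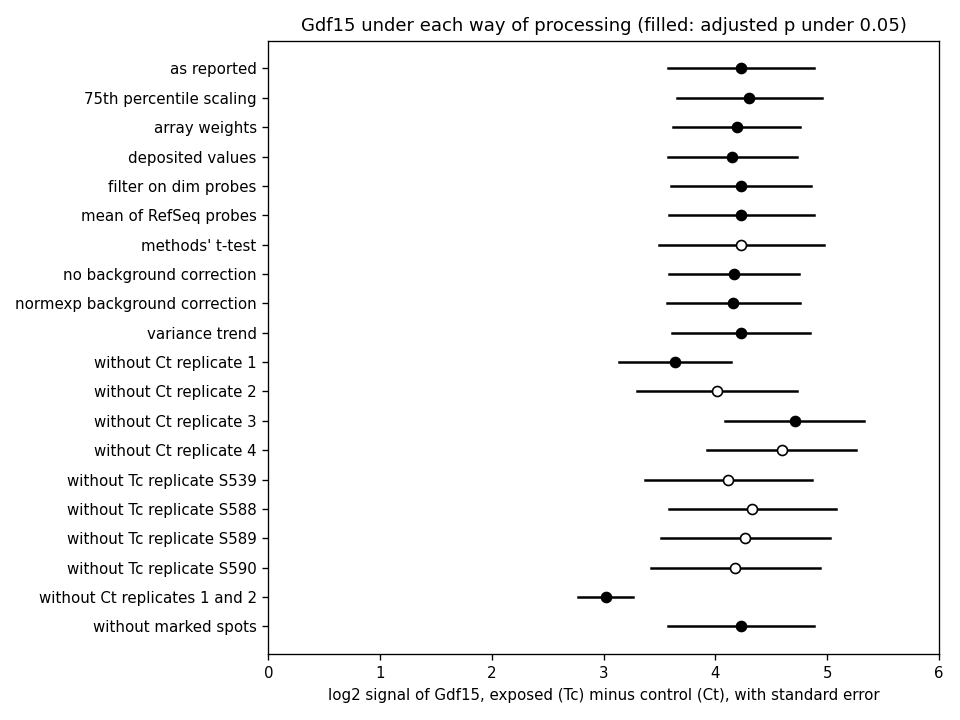
Change of Gdf15 (x axis, log2 signal, exposed minus control) in the reported analysis and in 19 alternatives, 1 per line. Bars are ± 1 SE and filled points have an adjusted p under 0.05. Values lay between 3.02, without Ct replicates 1 and 2, and 4.71, without Ct replicate 3.

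The promoter of Gdf15 is shown because Gdf15 was the member that rose. RefSeq (assembly GRCm38.p6) gave promoter windows for 7 of the 10 members, 8 in all, since Gdf15 has 2 start sites on the minus strand. The 250 bases before the upstream start site, at chr8:70632457-70632706, read as follows, with the letters CAGAC, the core bound by Smad proteins, in capitals as they read on this strand.
Gdf15 promoter: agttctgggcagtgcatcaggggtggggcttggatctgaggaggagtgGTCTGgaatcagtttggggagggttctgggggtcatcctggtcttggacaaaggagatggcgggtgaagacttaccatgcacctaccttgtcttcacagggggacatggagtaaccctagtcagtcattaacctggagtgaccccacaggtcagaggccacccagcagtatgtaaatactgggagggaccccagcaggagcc

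Searched on both strands, this window held CAGAC once, 202 bases before the start, and the window of the other start site held it once, 116 bases before it. Of all 32851 promoter windows of that length, 42.2% hold CAGAC. Neither Gdf15 window held the p53 half-site, which 7.13% of all windows hold, TGACG, the half-site of the cAMP response element (17.8%), or TGATGCAA, the element of ATF and C/EBP factors (0.791%). None of the other 6 members whose window was read held the p53 half-site in its 250 bases either. These matches describe the letters of short windows and say nothing of binding.

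Among the genes known to act on Gdf15 transcription, 6 were listed in full, and none was called, against 1.2% of all RefSeq genes. At an unadjusted limma p under 0.05, 2 were higher and 0 lower, where 6.47% and 8.13% of all RefSeq genes were. Groups did not overlap for 2, both higher (5.44% of all RefSeq genes). The arrays read RNA only, so protein and activity of these factors were not measured. Trp53, which encodes p53 itself, had a change of -0.27 (adjusted p = 0.699) and Atf4, the factor at the centre of the integrated stress response, of 0.03 (adjusted p = 0.958). Nupr1, a stress-induced cofactor, had a change of -0.15 (adjusted p = 0.739).

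The early response factor Egr1 measured 11.06, 11.48, 12.79 and 12.41 in the controls (Ct1 to Ct4) and 13.16, 12.97, 13.36 and 13.91 in the exposed thyroids. Its groups did not overlap, and Ct1 and Ct2 were its low controls, as for Gdf15. The change of Egr1 was 1.42 (SE 0.41, adjusted p = 0.218).

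Ddit3, which encodes the stress factor CHOP, measured between 9.87 and 10.48 in the controls and between 10.56 and 10.94 in the exposed thyroids, a change of 0.62 (SE 0.17, adjusted p = 0.194). Its groups were apart by a small gap. Atf3, a partner of these factors, had a change of 1.61 (SE 0.70, adjusted p = 0.416) and reached 12.90 on S590 alone, where the other 7 arrays read 8.34 to 10.62.

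The 5 genes whose profiles were most like that of Gdf15, by the root mean square (RMS) difference of log2 values set against each gene's own control mean over the 8 arrays and 13766 genes, were Lcn8 (0.56), Psapl1 (0.70), Rprm (0.84), Slc23a1 (0.88) and 4632434I11Rik (0.96). Lcn8 encodes a lipocalin, Psapl1 a relative of prosaposin, Rprm the p53-induced cell cycle inhibitor reprimo, and Slc23a1 a vitamin C transporter. Having been chosen for likeness, they are described without a test. Lcn8 was 5.68, 7.05, 7.30 and 7.32 in the controls and 11.30, 10.81, 10.60 and 10.81 in the exposed thyroids. Changes of the other 4 lay between 3.33 for Slc23a1 and 4.39 for Psapl1. A shared shape follows from this choice. In Lcn8, Psapl1, Rprm and Slc23a1, as in Gdf15, the lowest control was Ct1 and the highest exposed array was S539. In 4632434I11Rik S539 was also highest among the exposed, but Ct1, at 6.88, was the highest control. The signal limit was on the mean over the 8 arrays. Lcn8 and 4632434I11Rik, with control means of 6.84 and 6.58, passed it only through the exposed arrays.

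**Figure D3:**
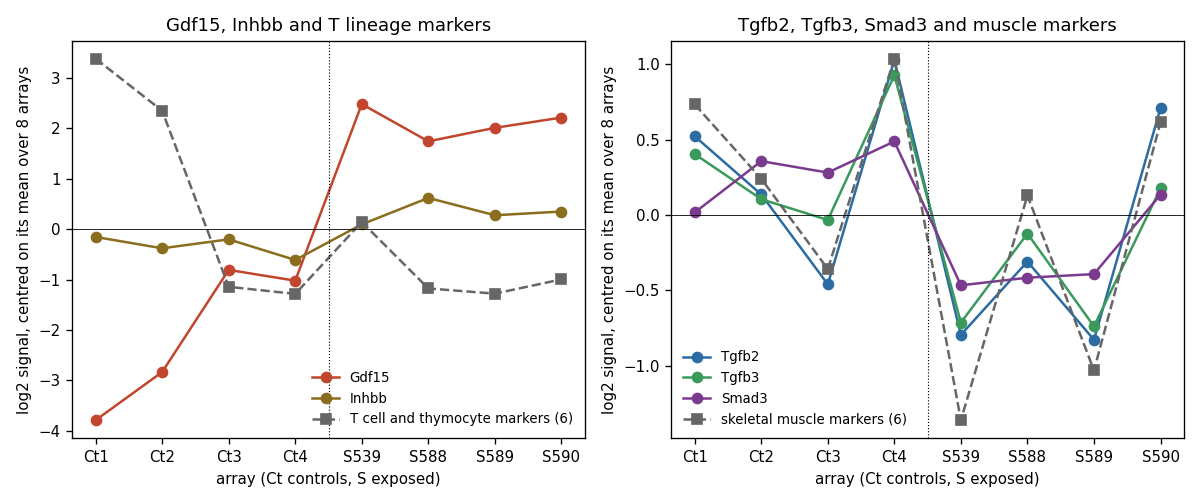
Members and marker lists across the 8 arrays (x axis), as log2 signal centred on the mean over the arrays (y axis). The left panel sets Gdf15 and Inhbb beside the mean of 6 T cell and thymocyte markers, which is high on Ct1 and Ct2 where Gdf15 is lowest. The right panel sets Tgfb2, Tgfb3 and Smad3 beside the mean of 6 skeletal muscle markers. That mean is highest on Ct4 among the controls and on S590 among the exposed, as are these 3 genes. On Ct1 the marker mean is 0.73, while Smad3 is at its lowest among the controls.

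Of the TGF-beta ligands proper, the 3 isoforms were each measured and none was called. Tgfb1 and Tgfb2 are close relatives, and the probes that read them are shown because their sequences are alike. In each 60-base probe the bases that are identical between them in the aligned stretch are in capitals.
Tgfb1: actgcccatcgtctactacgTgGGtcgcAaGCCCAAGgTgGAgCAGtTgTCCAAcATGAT
Tgfb2: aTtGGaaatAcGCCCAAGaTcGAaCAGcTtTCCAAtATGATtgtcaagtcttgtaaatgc

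These probes share 28 of 41 aligned bases (68.3%), and the longest unbroken run has 7 bases. This was the highest identity between probes of any 2 members. The Tgfb1 probe lies at chr7:26489877-26489936 (plus strand) and the Tgfb2 probe at chr1:188449333-188449392 (minus strand) of mm9.

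Tgfb1, the isoform best known from fibrosis and immune restraint, measured 10.35, 9.76, 9.41 and 9.01 in the controls and 9.92, 9.43, 9.28 and 9.44 in the exposed thyroids. The exposed values lay within the range of the controls, in which Ct1, with the highest T cell and thymocyte score, was highest. The change was -0.11 (SE 0.30, 95% interval -0.80 to 0.57, adjusted p = 0.899). It was 0.13 without Ct1 and 0.31 without Ct1 and Ct2, so its sign rested on those controls. The 10 Tgfb1 spots of an array differed with an SD of 0.05 to 0.06, against an SD of 0.57 between control arrays.

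Tgfb2, which is prominent in development, was read by a pair of probes. The first measured 10.38, 9.995, 9.40 and 10.89 in the controls and 9.06, 9.55, 9.03 and 10.57 in the exposed thyroids. The second, dimmer probe measured 8.64, 8.52, 8.06 and 9.42 in the controls and 7.57, 7.66, 7.56 and 8.93 in the exposed. Both probes overlapped between groups and were highest on Ct4 and, among the exposed, on S590. Their changes were -0.61 (SE 0.43, adjusted p = 0.590) and -0.73 (SE 0.40, adjusted p = 0.498).

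Tgfb3, an isoform of palate, lung and mesenchyme, measured 12.09, 11.80, 11.66 and 12.62 in the controls and 10.98, 11.57, 10.95 and 11.87 in the exposed thyroids. S590 lay above Ct2 and Ct3, and the other 3 exposed arrays lay below all controls. The change was -0.70 (SE 0.29, 95% interval -1.38 to -0.02, adjusted p = 0.395), with p = 0.0857 in the exact permutation test. The SD of its 10 spots within an array was 0.04 to 0.07, and the SD between arrays was 0.43 in the controls and 0.45 in the exposed thyroids.

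The skeletal muscle markers varied across the arrays with Tgfb2 and Tgfb3. All 6 were lower on average in the exposed thyroids, by between -1.16 and -0.12, and none was called. Acta1, the actin of skeletal muscle, was 18.66 on Ct4 and 18.28 on S590, and 16.22 and 16.58 on S539 and S589, where both isoforms were low. The part of muscle RNA in the changes of Tgfb2 and Tgfb3 was not tested.

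The activin and inhibin subunits had changes of opposite sign, neither past the threshold. Inhbb, the beta B subunit, measured 9.44, 9.21, 9.39 and 8.98 in the controls and 9.69, 10.21, 9.87 and 9.94 in the exposed thyroids. All exposed arrays were above all controls. The change of Inhbb was 0.67 (SE 0.17, 95% interval 0.28 to 1.07, adjusted p = 0.163), or 1.59-fold, and the exact permutation test gave p = 0.0286. It stayed between 0.57 and 0.75 with any 1 array left out, where the limma adjusted p ran from 0.130 to 0.374. The lowest adjusted p in any alternative was 0.0553, by limma on the deposited values.

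Inhba, the beta A subunit that forms activin A, measured 8.00, 8.02, 7.98 and 9.22 in the controls and 8.08, 7.61, 7.63 and 8.28 in the exposed thyroids. Ct4 stood above the rest and the groups overlapped. The change was -0.40 (SE 0.32, 95% interval -1.15 to 0.35, adjusted p = 0.638), and -0.10 without Ct4.

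Of the bone morphogenetic proteins, Bmp4, a ligand that patterns foregut derivatives, measured 12.45, 12.25, 11.86 and 12.15 in the controls and 12.86, 11.76, 11.68 and 12.19 in the exposed thyroids. S539 was highest of all arrays and S589 lowest, so the control values lay inside the exposed range. The change was -0.06 (SE 0.28, 95% interval -0.70 to 0.59, adjusted p = 0.951), and its sign changed in several alternatives. A further Bmp4 probe was not well above background on any array and is given no fold.

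Bmp7, a ligand of kidney and epithelium that opposes TGF-beta in fibrosis, measured 10.25, 10.62, 10.53 and 10.14 in the controls and 10.63, 10.18, 10.32 and 9.94 in the exposed thyroids. The groups overlapped over most of their range. The change was -0.12 (SE 0.19, 95% interval -0.57 to 0.33, adjusted p = 0.826).

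Smad3, the receptor-activated transducer of TGF-beta and activin, measured 12.42, 12.76, 12.68 and 12.89 in the controls and 11.93, 11.99, 12.01 and 12.54 in the exposed thyroids. S539, S588 and S589 were below all controls, and S590 was above Ct1. The change was -0.57 (SE 0.19, 95% interval -1.001 to -0.14, adjusted p = 0.282), with p = 0.0571 in the exact permutation test. The other Smad3 probe was dim, with a measurement error of 12.1% to 21.98% given by the scanner software against about 10% for the first, and had a change of -0.13 (SE 0.40, adjusted p = 0.918).

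Smad7, the inhibitory Smad that TGF-beta itself induces, measured 9.22, 9.59, 9.59 and 9.47 in the controls and 9.78, 9.18, 9.21 and 9.77 in the exposed thyroids. Its exposed values fell into a high pair, S539 and S590, and a low pair just under the controls. The change was 0.02 (SE 0.20, 95% interval -0.45 to 0.48, adjusted p = 0.981). Changes beyond 1.39-fold either way lay outside that interval.

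**Figure D4:**
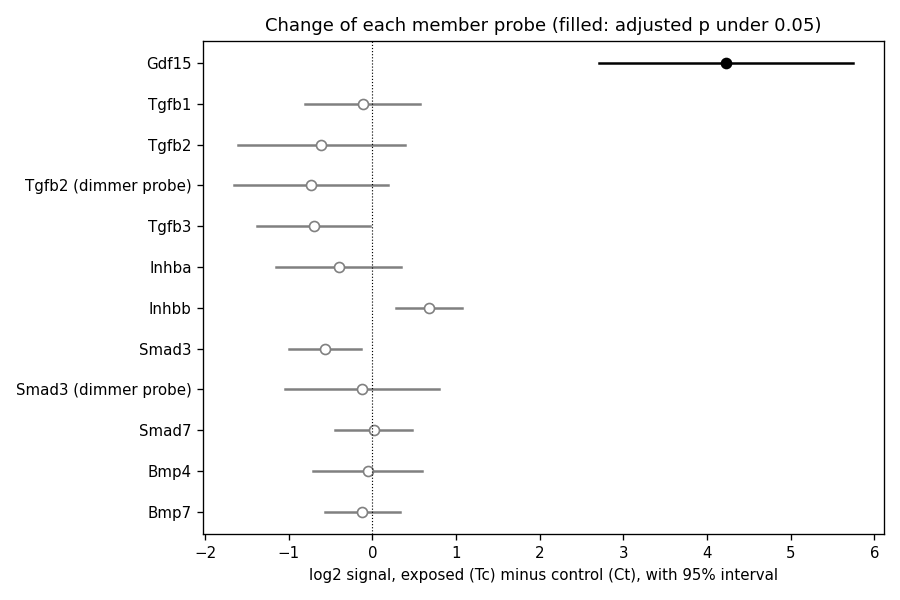
Change of each member probe that was well above background on all 8 arrays (x axis, log2 signal, exposed minus control) with its 95% interval. The interval of Gdf15 ran from 2.71 to 5.74 and its point is filled (adjusted p under 0.05). Those of Inhbb, Tgfb3 and the first Smad3 probe also lay to one side of 0, without passing the adjusted test.

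The rest of the pathway was read from 6 lists of 100 genes: other ligands, receptors, other Smads, extracellular regulators, intracellular regulators and target genes. Of these, 91 passed background on every array of at least 1 group. By limma none of the 100 was called, against 1.2% of all RefSeq genes called in either direction. At an unadjusted p under 0.05 there were 8 higher and 19 lower (27% against 14.6% of all RefSeq genes). The methods' t-test with adjustment called 0 higher and 1 lower, and the deposited values 1 higher and 3 lower, where they called 1.62% and 1.04% of all RefSeq genes. Groups did not overlap for 6 genes that were higher and 10 that were lower, which is 16% against 11.7%. The median change over the 100 genes, -0.03, was that of all RefSeq genes.

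Among the 25 other ligands, 1 was higher and 3 were lower at an unadjusted p under 0.05 (6.47% and 8.13% of all RefSeq genes). Gdf1, Gdf5 and Bmp5, chosen by signal, had a change of -1.004 (adjusted p = 0.426), 0.58 (adjusted p = 0.453) and -0.13 (adjusted p = 0.760). Gdf10, also called BMP3B, was chosen after its values were seen. It measured 9.50, 9.91, 9.83 and 9.64 in the controls and 9.07, 8.45, 8.82 and 9.25 in the exposed thyroids, all lower, with a change of -0.82 (SE 0.20, adjusted p = 0.156). Bmp8a, the ligand that was higher, was named likewise and lay between 9.02 and 9.31 in the controls and between 9.39 and 10.11 in the exposed thyroids (change 0.47, SE 0.18, adjusted p = 0.366).

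The 16 receptors had changes between -1.004 and 0.57. Tgfbr2, the receptor that binds TGF-beta first, had a change of -0.18 (SE 0.19, adjusted p = 0.716), its coreceptor Tgfbr3 (betaglycan) of 0.10 (SE 0.12, adjusted p = 0.745) and the activin receptor Acvr2b of -0.12 (SE 0.15, adjusted p = 0.764). Tgfbr1, the kinase that phosphorylates Smad3, was named after its values were seen. It lay between 11.00 and 11.16 in the controls and between 10.76 and 10.84 in the exposed thyroids, apart by a narrow gap (change -0.31, SE 0.11, adjusted p = 0.348). Named likewise, Bmpr1b, a BMP receptor, had a change of -0.77 (SE 0.25, adjusted p = 0.268) and Acvrl1, the receptor ALK1 of endothelium, of 0.31 (SE 0.17, adjusted p = 0.487), both with groups apart. Bmpr2, the type II BMP receptor, had a change of 0.57 (SE 0.19, adjusted p = 0.290) with overlap. Gfral, the GDF15 receptor, was well above background on 2 control arrays and 1 exposed array, so no change is given, and its partner Ret had a change of -0.16 (SE 0.25, adjusted p = 0.812).

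Of the 6 other Smads, Smad4, the partner common to all branches, lay between 12.80 and 12.90 in the controls and between 12.84 and 12.99 in the exposed thyroids (change 0.05, SE 0.12). Smad5, of the BMP branch, had a change of -0.17 (SE 0.12) and the inhibitor Smad6 of -0.29 (SE 0.25). Smad1 and Smad9, also of the BMP branch, were named after their values were seen. Smad1 had a change of -0.01 (SE 0.27, adjusted p = 0.993). Smad9 measured 9.54, 10.23, 10.48 and 9.86 in the controls and 9.04, 7.73, 8.98 and 9.34 in the exposed thyroids. Its groups were apart, and its change was -1.26 (SE 0.38, adjusted p = 0.241).

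The 27 extracellular regulators held the genes nearest to the threshold: at an unadjusted p under 0.05, 2 were higher and 8 lower, where 6.47% and 8.13% of all RefSeq genes were. Those without a place in the rule by signal are named here after their values were seen. Ltbp1, which ties latent TGF-beta to the matrix, measured 11.72, 11.80, 11.88 and 11.56 in the controls and 11.00, 11.08, 10.94 and 11.11 in the exposed thyroids. The groups were tight and far apart for their spread, with a change of -0.71 (SE 0.13, adjusted p = 0.0632). Lrrc33 (now Nrros), which anchors latent TGF-beta on macrophages, measured 11.33, 11.18, 10.94 and 10.93 in the controls and 10.28, 10.06, 10.34 and 10.28 in the exposed thyroids, a change of -0.85 (SE 0.15, adjusted p = 0.0541). Each of these genes passed the threshold in 8 of the 19 alternatives.

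Ltbp2, a relative of Ltbp1 that does not bind latent TGF-beta, measured 12.07, 12.68, 12.89 and 12.52 in the controls and 14.07, 13.61, 13.44 and 13.39 in the exposed thyroids. All exposed arrays were higher, and the change was 1.09 (SE 0.23, adjusted p = 0.103), past the threshold in 3 alternatives. Thbs1, thrombospondin 1, an activator of latent TGF-beta, had a change of 0.69 (SE 0.20, adjusted p = 0.216) with its groups apart. By signal, the rule named Dcn, Ltbp4 and Ltbp3. Dcn, the proteoglycan decorin that binds TGF-beta, lay between 16.47 and 16.82 in the controls and between 15.81 and 16.20 in the exposed thyroids (change -0.61, SE 0.14, adjusted p = 0.139). Ltbp4 had a change of -0.42 (SE 0.15, adjusted p = 0.345) and Ltbp3 of -0.11 (SE 0.16, adjusted p = 0.810).

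Fibroblast and macrophage markers were lower alongside these regulators. The score of 6 fibroblast markers ran from 0.07 to 0.51 in the controls and from -0.48 to -0.11 in the exposed thyroids, with all 6 genes lower, 4 of them without overlap (6.21% of all RefSeq genes were lower without overlap), and none called. Pdgfra, a receptor of fibroblasts, had a change of -1.05 (SE 0.23, adjusted p = 0.113). The score of 6 macrophage markers ran from -0.08 to 0.31 in the controls and from -0.52 to 0.08 in the exposed, with 5 of 6 lower and none called, and Csf1r, the receptor that keeps macrophages alive, had a change of -0.63 (SE 0.15, adjusted p = 0.149). No marker of either list was at background. The part of these cells in the values of Ltbp1, Dcn and Lrrc33 was not tested.

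The 10 intracellular regulators had changes between -0.74 and 0.61. Pmepa1, a TGF-beta target that restrains Smad signalling, lay between 12.73 and 13.15 in the controls and between 11.95 and 12.59 in the exposed thyroids. Its groups were apart, with a change of -0.74 (SE 0.19, adjusted p = 0.168). The corepressor Tgif1 had a change of -0.22 (SE 0.21, adjusted p = 0.699) and Tob1, an antiproliferative regulator of BMP signalling, of 0.61 (SE 0.30, adjusted p = 0.465).

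Of the 16 target genes, 3 were higher and 4 lower at an unadjusted p under 0.05 (6.47% and 8.13% of all RefSeq genes). The matrix genes Col1a2 and Col3a1 had a change of -0.15 (SE 0.20, adjusted p = 0.787) and -0.46 (SE 0.27, adjusted p = 0.527), and Ctgf (now Ccn2), a matricellular target, of 0.44 (SE 0.40, adjusted p = 0.679).

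The inhibitors of differentiation, targets of the BMP branch, differed among themselves. They and the other targets that follow were named after their values were seen. Id1 lay between 12.44 and 12.93 in the controls and between 13.10 and 14.14 in the exposed thyroids, apart, with a change of 0.86 (SE 0.24, adjusted p = 0.212). Id3 had a change of -0.92 (SE 0.31, adjusted p = 0.298), Id2 of -0.45 (SE 0.22) and Id4 of -0.37 (SE 0.32). Atoh8, a further BMP target, had a change of 0.58 (SE 0.15, adjusted p = 0.166), and Tgfbi, a matrix protein named for its induction by TGF-beta, of -0.67 (SE 0.22, adjusted p = 0.298), both with groups apart. The plot of the pathway by role shows these genes on both sides of 0 within single lists.

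**Figure D5:**
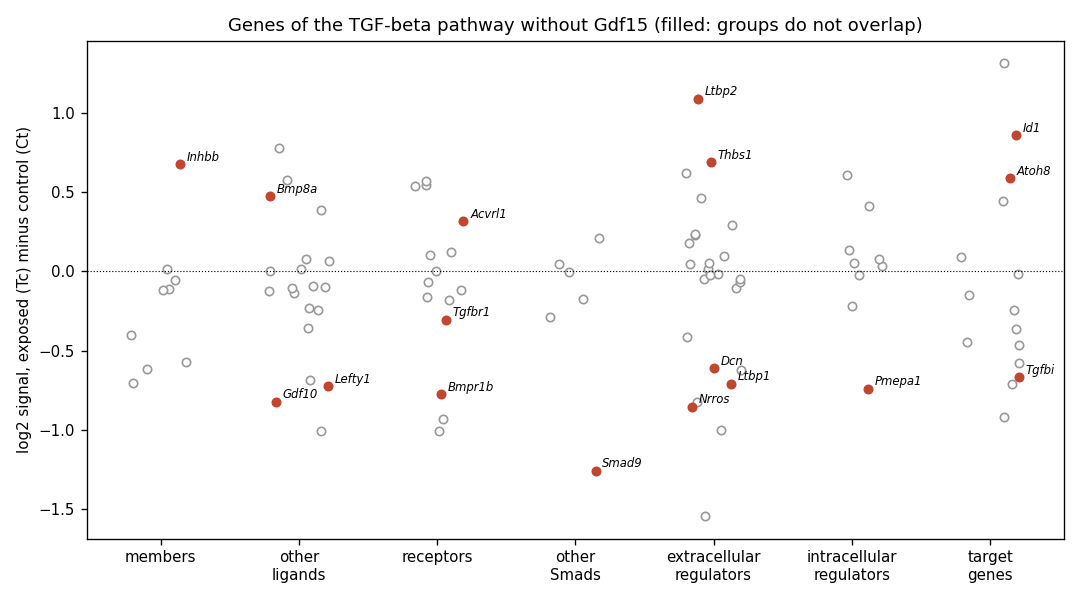
Change (y axis, log2 signal, exposed minus control) of the members other than Gdf15 and of the genes of the 6 pathway lists (x axis) that passed background on every array of at least 1 group, 1 point per gene. Filled and named points are genes whose 4 exposed and 4 control arrays did not overlap, and horizontal scatter carries no meaning. Named genes lie on both sides of 0, from -1.26 for Smad9 to 1.09 for Ltbp2, and none was called.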

How the data were processed

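Per the labels and the methods, 1 thyroid per one-colour Cy3 array was hybridised (4 Ct, 4 Tc, as the source names give). The authors deposited scanner intensity values made by Feature Extraction 10.7.3.1 and a table of log2 values, quantile-normalized in limma without background subtraction (within 0.0378 of the median spot signal). Here the software's background-subtracted intensity of non-control spots was log2-transformed, quantile-normalized, averaged over the spots of a probe and compared with lmFit and eBayes (limma 3.58.1, R 4.3.3), with Benjamini-Hochberg adjustment over 55681 probes. A gene was read by its RefSeq probe of highest mean signal (27752 probes, 21021 genes). Single values also had exact permutation tests over 70 assignments.

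By rule, named genes were all members, the called and up to 3 brightest genes of each pathway list, the 5 genes most like Gdf15 (mean log2 signal of at least 7) and the 6 regulators of Gdf15. Other pathway genes (Gdf10, Bmp8a, Tgfbr1, Bmpr1b, Acvrl1, Bmpr2, Gfral, Ret, Smad1, Smad9, Ltbp1, Lrrc33, Ltbp2, Thbs1, Id1 to Id4, Atoh8 and Tgfbi) and markers were named outside this rule, after their values were seen. The members, lists and rules were chosen with earlier results of these data known, and lists come from general knowledge. Only 4 arrays a group limit the precision. All columns could be mapped to a sample. The procedure was also tested on simulated arrays. Alternatives were other background corrections (normexp with an offset of 50), scaling to the 75th percentile, a filter on dim probes, the deposited values, other variance models, an ordinary t-test, leaving out marked spots, the mean of RefSeq probes and leaving out each array. The ordinary t-test has a pooled variance and is labelled methods' t-test in the plot of the Gdf15 change. The study names a Student's t-test for dual comparisons, while its array methods name limma and a B-test. Coordinates of probes are in mm9, as the array files give them, and promoters are those of RefSeq (GRCm38.p6). Protein sequences and other experiments of the study were not used here. Some results are not reported here.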

Additional observations from a re-analysis of the deposited data

Results flagged for a closer look

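Within the groups of 4 arrays, 26 sets of member values were examined for 1 array standing apart by Dixon's criterion (gap to the nearest array over the whole range above its critical value), and 4 were found. Chance gives about 1 in 20. On S590 the dimmer Tgfb2 probe read 8.93 (ratio 0.922), the first Smad3 probe 12.54 (ratio 0.876) and the dim Smad3 probe 6.69 (ratio 0.888), each above the other exposed thyroids. On Ct4, Inhba read 9.22 (ratio 0.968), above the other controls. Those 2 arrays also had the highest skeletal muscle scores of their groups, 0.61 and 1.04. Whether muscle RNA has a part in these values was not tested.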

How the results depend on the processing

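The change of Gdf15 kept its direction in all 19 alternatives and lost the threshold in 7. It was an unchanged 4.23 under the ordinary t-test and ran from 3.64 to 4.71 when each array was left out. The number of members called higher was 0 under that t-test and 0 to 1 with an array left out, and that of members called lower was 0 throughout. Pathway genes called higher numbered 1 with the deposited values, without background correction and with a variance trend, which was Ltbp2 each time, and 0 with any array left out. Pathway genes called lower numbered 3 with the deposited values and without background correction. They numbered 2 with array weights, the filter on dim probes, the mean of RefSeq probes, normexp and the variance trend, and 1 with 75th percentile scaling and the t-test, and 0 with any array left out. The genes so called lower were Lrrc33, Ltbp1 and Gdf10. The cause was not tested. Of all 55681 probes, 310 were called lower with the deposited values, 314 without background correction and 375 with array weights. They were 270 with normexp, 222 with the variance trend, 88 with 75th percentile scaling and 60 with the t-test. The filter left 224 of 36135 probes called lower, and the mean of RefSeq probes 148 of 21021 genes. Called higher were 645 with the deposited values, 648 without background correction and 522 with the variance trend. Of 171 values for the other 9 members, 159 kept direction and side of the threshold and 12 reversed. Bmp4 became 0.0060 with normexp, 0.11 without Ct1 and Ct2, and ran from -0.30 to 0.090 with each array left out. Smad7 became -0.038 with array weights, -0.047 without Ct1 and Ct2, and ran from -0.082 to 0.12. Tgfb1 became 0.31 without Ct1 and Ct2 and ran from -0.32 to 0.13. The alternative without Ct1 and Ct2 was added after seeing the data. Over all probes, 435 were called, and 83 to 962 in the alternatives. Scaling to the 75th percentile moved the median of all probes from 0.01 to 0.16. No paired analysis was possible because the groups share no replicate numbers.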
